A study of Mus musculus with 12 samples.

Results

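The HOX genes were taken as every symbol in the deposited count table that names a gene of the Hoxa, Hoxb, Hoxc or Hoxd cluster, that is, the cluster letter followed by a paralog number. The rule used the name alone and no measured value. It found 33 of 24619 gene symbols: 9 of Hoxa on chromosome 6, 10 of Hoxb on chromosome 11, 7 of Hoxc on chromosome 15 and 7 of Hoxd on chromosome 2. Other members of the family were not analysed here.

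HOX genes encode homeodomain transcription factors and lie in clusters, in which the order of the genes along the chromosome follows the order in which they act from head to tail. A gene is named by its cluster and its paralog number. Low numbers are used from the hindbrain downwards, and high numbers act in the lower trunk, the limbs and the tail. Fibroblasts keep much of this code in culture, so that their set of HOX transcripts is commonly read as a record of the place in the body they came from.

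Messenger RNA was sequenced from mouse cells labelled as primary cardiac fibroblasts, in 4 groups of 3 libraries. All were starved for 12 h and then held for 24 h in conditioned medium, which carries what adipocytes had released. In VEC_CM the adipocytes carried an empty vector lentivirus, and in OE_CM a lentivirus overexpressing the human microRNA hsa-miR-548ay. TGF_VEC_CM and TGF_KD_CM received TGF-beta1, an activator of fibroblasts, together with medium from adipocytes that carried the vector or a lentivirus inhibiting that microRNA. Groups follow the sample titles, because the treatment field gives miR-549ay for the second and miR-550ay for the third replicate of OE_CM and of TGF_KD_CM. The labels used here give no strain, sex, age or dose of TGF-beta1, nor do they tell if replicate libraries are separate cultures. The p-values measure no more than library-to-library spread, possibly technical. The labels place VEC_CM and OE_CM in 1 study part, and both groups with TGF-beta1 in another.

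Library totals lay between 33379207 and 37226153 counts. The level floor of 3 counts was at most 0.0939 CPM, which are counts scaled to library size with TMM factors. Floors cover counting error only. The labelled cell type was checked against marker genes. Collagen and mesenchyme genes were abundant: Col1a2 stood at 865 FPKM over all libraries, Vim at 1379 and Pdgfra at 18.4 (FPKM, a level corrected for depth and gene length). Other fibroblast markers were near 0, with at most 10 counts in any library for the matrix gene Dcn, 1 for Lum and 18 for Thy1. Of the heart field and cardiac fibroblast factors listed, Tbx20, Gata6 and Tbx5 never exceeded 1 count, Wt1 never exceeded 2, Mef2c 4 and Nkx2-5 5. Gata4 (0.786 FPKM) and Tbx18 (2.39 FPKM) were present at low level, and 5 listed factors were not analysed here. The cells thus carried few of the transcription factors that mark a cardiac origin, and they are called by their label below.

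Of the 33 HOX genes, 28 had enough counts to be tested and 5 did not. The 5 silent ones are Hoxb1, Hoxc11, Hoxd10, Hoxd11 and Hoxd13. The promoters of 4 genes show the kinds of gene in this set. Hoxa5 and Hoxa6 are neighbours that moved together with the medium, Hoxd4 had the largest rise of a HOX gene in inhibition medium, and Hoxd13 was silent. The sequences are the 250 bases before the RefSeq start on GRCm38.p6, 5′ to 3′ on the gene's strand, with each CG dinucleotide in capitals. Hoxa5 lies at chr6:52204588-52204837 on the minus strand, Hoxa6 at chr6:52208673-52208922 on the minus strand, Hoxd4 at chr2:74721728-74721977 on the plus strand and Hoxd13 at chr2:74667975-74668224 on the plus strand.
Hoxa5: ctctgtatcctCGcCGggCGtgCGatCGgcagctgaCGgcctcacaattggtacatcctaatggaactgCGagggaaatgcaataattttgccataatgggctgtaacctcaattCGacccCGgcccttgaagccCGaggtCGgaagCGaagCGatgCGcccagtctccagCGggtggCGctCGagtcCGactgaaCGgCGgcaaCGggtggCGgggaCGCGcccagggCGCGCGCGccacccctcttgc
Hoxa6: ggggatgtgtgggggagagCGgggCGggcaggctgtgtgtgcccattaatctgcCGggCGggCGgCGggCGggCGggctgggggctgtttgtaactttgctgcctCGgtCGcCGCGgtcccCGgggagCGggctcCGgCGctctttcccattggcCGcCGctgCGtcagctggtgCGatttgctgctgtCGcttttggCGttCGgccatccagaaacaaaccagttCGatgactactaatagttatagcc
Hoxd4: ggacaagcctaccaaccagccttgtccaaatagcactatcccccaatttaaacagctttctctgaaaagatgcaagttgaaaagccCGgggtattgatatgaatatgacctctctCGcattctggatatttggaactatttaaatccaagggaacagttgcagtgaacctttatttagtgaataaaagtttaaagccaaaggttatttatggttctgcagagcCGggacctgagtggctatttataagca
Hoxd13: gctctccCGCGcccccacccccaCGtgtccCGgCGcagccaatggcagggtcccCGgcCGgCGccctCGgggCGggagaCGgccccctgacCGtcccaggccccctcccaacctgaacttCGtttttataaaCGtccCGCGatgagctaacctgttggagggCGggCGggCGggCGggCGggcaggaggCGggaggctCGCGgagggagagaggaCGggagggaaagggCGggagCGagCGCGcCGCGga
The 4 windows hold 28, 24, 3 and 31 CG dinucleotides respectively. A RefSeq window was found for 18 of the 33 members, 20 windows in all, with a median of 12 CG against 6 over 32851 windows of all genes used. Windows of tested members ran from 3 to 28 and those of the silent members from 2 to 31, so the ranges of the expressed and the silent genes overlapped. The letters TGATNNAT, a core of the joint binding site of HOX and PBX proteins, were searched on both strands. They occurred in 4 of the 20 windows (20% against 7.68% of all windows), those of Hoxa2, Hoxb1, Hoxb8 and 1 of the 2 windows listed for Hoxd11. A match is only a match of letters.

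Levels between genes are compared here in FPKM, which divides by gene length. Hoxc10, a paralog group 10 gene of hindlimb and lumbar regions (chromosome 15, 102966796 to 102971898, NCBI gene 209448), led all HOX genes. It stood at 57.3 ± 1.45 FPKM in VEC_CM, 51.4 ± 2.05 in OE_CM, 45.3 ± 0.688 in TGF_VEC_CM and 49.1 ± 1.66 in TGF_KD_CM (SD, n = 3). Its mean over all libraries was above that of 94.3% of the genes in the table. Its paralog Hoxa10 (chromosome 6, 52231197 to 52240854, NCBI gene 15395) was next, at 23.1 ± 1.36 FPKM in VEC_CM, while the third paralog, Hoxd10, had at most 1 count in a library. Hoxc6 (15.9 FPKM over all libraries), Hoxb6 (14.6), Hoxb9 (11.3), Hoxc8 (11.0) and Hoxd8 (10.5) followed. The other 21 tested members ran from 1.10 FPKM (Hoxd3) to 8.98 (Hoxb2). The order rests on the gene lengths behind the deposited FPKM, which for some genes are far from the GENCODE exon length: 2254 against 874 bases for Hoxa6, 2048 against 5580 for Hoxa9 and 9627 against 4251 for Hoxb3. The order of neighbours was not fixed between groups either: Hoxb2 and Hoxb7, at 8.38 ± 0.153 and 9.63 ± 0.613 FPKM in VEC_CM, stood in the opposite order in TGF_VEC_CM, at 9.88 ± 0.637 and 7.15 ± 0.592.

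The upper end of the code differed between the clusters. Hoxa members were expressed up to Hoxa10. In Hoxc, Hoxc10 was the most abundant HOX gene, and its neighbour Hoxc11 had 0 to 6 counts per library. In Hoxd the drop came earlier: Hoxd9 stood at 5.36 FPKM over all libraries, and Hoxd10, Hoxd11 and Hoxd13 had at most 1 count in any library. Hoxb differed again, since Hoxb13 (chromosome 11, 96194316 to 96196610, NCBI gene 15408), a gene of the tail end of the body axis, stood at 5.40 ± 0.175 FPKM in VEC_CM, close to Hoxb5 (6.27 ± 0.46). At the other end Hoxb1, a hindbrain gene, had 1 count in 1 library and none in the other 11. The cluster sums in VEC_CM were 104 ± 2.22 FPKM for Hoxc, 67.1 ± 3.21 for Hoxa, 61.9 ± 0.607 for Hoxb and 21.1 ± 0.896 for Hoxd.

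**Figure D1:**
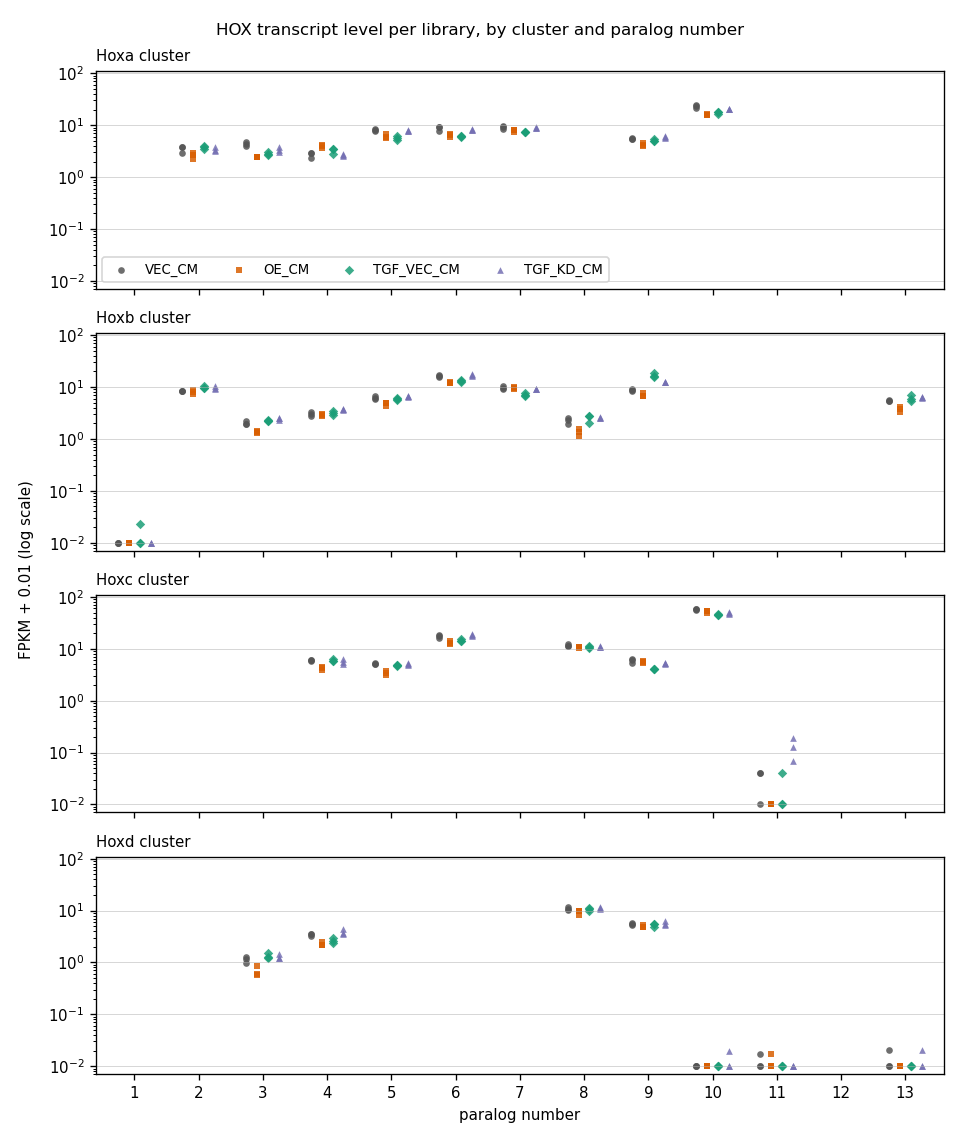
FPKM + 0.01 on a log scale (vertical) against paralog number (horizontal) for 32 of the HOX genes, 1 panel per cluster and 1 point per library, coloured by group. Hoxc10 is highest in every group, and Hoxb1, Hoxc11, Hoxd10, Hoxd11 and Hoxd13 lie at the bottom, while Hoxb13 stands with the expressed genes.

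The first comparison asks whether this code moves when the adipocytes overexpress the microRNA. It did, mostly downwards and by less than 2-fold. In OE_CM 19 of the 28 tested HOX genes fell and 1 rose, while 25.7% of all 14400 genes tested fell and 28.4% rose (54% called in all). The median log2 fold change was -0.33 over the HOX genes and -0.01 over all genes. Every OE_CM library lay below every VEC_CM library for 17 HOX genes and above for 1, against 27.9% and 30.4% of all genes tested. HOX transcripts together made up 525 to 538 CPM in the OE_CM libraries and 621 to 657 CPM in the VEC_CM libraries. In bulk RNA, fewer cells of a kind and less RNA per cell cannot be told apart. Under upper-quartile scaling the counts were 20 lower and 1 higher, although all genes shifted from 4083 higher and 3695 lower to 2798 and 5059.

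Paralog group 3, whose genes act in the hindbrain and neck, fell in all 3 clusters that hold one. Hoxa3 stood at 43.4, 50.8 and 47.7 CPM in the VEC_CM libraries and at 27.5, 28.3 and 27.2 CPM in those of OE_CM. The groups did not overlap, and its log2 fold change of -0.78 ± 0.061 (SE; edgeR adjusted p = 2.02e-16) was the strongest fall among HOX genes. Hoxb3 fell by 0.49 ± 0.073 on the log2 scale, from 19.2 ± 1.31 to 13.7 ± 0.476 CPM. Hoxd3 fell by 0.71 ± 0.187, from 3.30 ± 0.447 to 2.03 ± 0.471 CPM. These 3 genes have exons that overlap other genes: by GENCODE M21, 27.1% of the exonic bases of Hoxa3, 52.9% of Hoxb3 and 62.8% of Hoxd3 are shared. Counting the same strand only, the shares are 8.01%, 0% and 62.3%. The strand setting of the counting is not given, so it is not known which reads in those bases were told apart. The shares may also differ in the gene models that were counted, since Hoxa3 has 10868 bases there against 6014 in GENCODE.

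Paralog groups 4 to 8, which pattern the neck and chest, held 10 of the falls and the single rise. Hoxa4 stood at 3.48, 4.45 and 4.46 CPM in VEC_CM and at 6.46, 6.73 and 5.92 CPM in OE_CM. Every OE_CM library was above every VEC_CM library, and the rise was 0.62 ± 0.141 on the log2 scale (edgeR adjusted p = 0.000129). It lies between Hoxa3 and Hoxa5, which both fell, and 16% of its exonic bases are shared with a gene on the other strand. Its paralogs differed: Hoxd4 fell by 0.52 ± 0.112 and Hoxc4 by 0.48 ± 0.066, and Hoxb4 was at 7.71 ± 0.24 against 7.69 ± 0.546 CPM. All 3 genes of group 5 fell, Hoxc5 the most (-0.54 ± 0.086), and all 3 of group 6, between -0.33 and -0.37. Of group 8 only Hoxb8 passed, at 4.16 ± 0.616 against 6.66 ± 0.874 CPM (log2 -0.68 ± 0.134), while Hoxc8 was at 26.9 ± 0.961 against 27.4 ± 1.42 CPM (adjusted p = 0.733).

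Of the 7 tested genes of paralog groups 9 to 13, which act in the lower trunk and limbs, 5 fell. Hoxa10 stood at 64.3, 72.7 and 68.8 CPM in VEC_CM and at 48.5, 52.4 and 48.7 CPM in OE_CM. All OE_CM libraries lay below all VEC_CM libraries (log2 -0.46 ± 0.046; edgeR adjusted p = 1.2e-13). Hoxb13 fell from 7.36 ± 0.255 to 5.38 ± 0.57 CPM, Hoxa9 by 0.30 ± 0.093 on the log2 scale and Hoxb9 by 0.26 ± 0.066. Hoxc10, the most abundant, had the smallest change of the called genes. It stood at 111, 107 and 110 CPM against 106, 106 and 98.1 CPM (log2 -0.08 ± 0.036; edgeR adjusted p = 0.049). This call was lost without VEC_CM replicate 1 or 3 or OE_CM replicate 3 (adjusted p = 0.135, 0.145 and 0.397), and with DESeq2 (0.0665). The calls of Hoxa2 (log2 -0.36; edgeR adjusted p = 0.0201) and Hoxa7 (-0.14; adjusted p = 0.0369) were also lost without single libraries. For Hoxa2 these were VEC_CM replicate 1 or 2 or OE_CM replicate 2 (adjusted p = 0.0928, 0.1 and 0.148). For Hoxa7 they were VEC_CM replicate 1 or 2 or OE_CM replicate 1 or 3 (0.0884, 0.179, 0.185 and 0.0644).

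**Figure D2:**
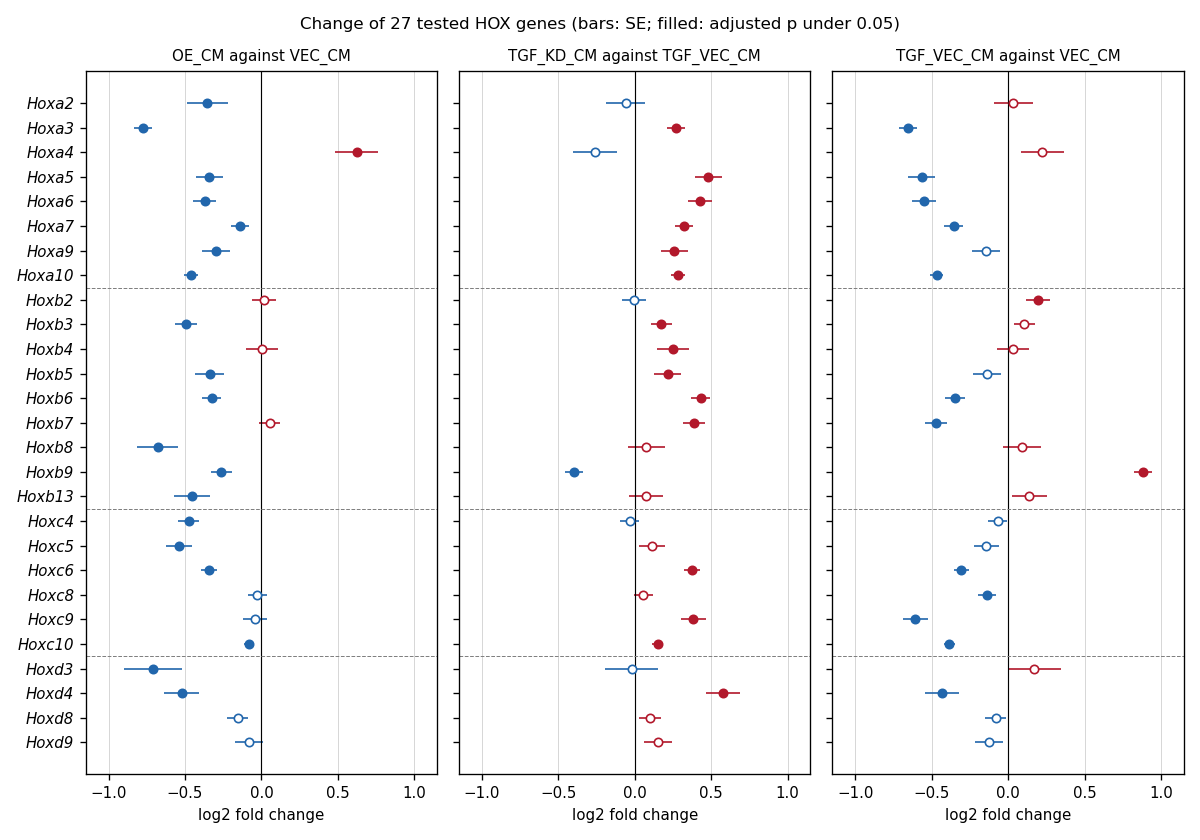
Log2 fold change with its SE (horizontal) for 27 of the 28 tested HOX genes (vertical, by cluster and paralog number) in 3 comparisons; filled points have an adjusted p under 0.05, red is higher and blue lower. Most points lie left of 0 in the first panel and right of 0 in the second, with Hoxa4 and Hoxb9 as the called exceptions.

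The next comparison asks the same of medium from adipocytes with the microRNA inhibited, in the presence of TGF-beta1. Here the code moved mostly upwards. In TGF_KD_CM 15 of the 28 genes rose and 1 fell, against 23% of all genes higher and 20.2% lower (43.3% called in all). The median log2 fold change was 0.16 over the HOX genes and 0.00 over all genes. HOX transcripts together made up 619 to 627 CPM in TGF_KD_CM and 542 to 557 CPM in TGF_VEC_CM. Every TGF_KD_CM library lay above every TGF_VEC_CM library for 16 HOX genes and below for 1, against 26.2% and 24.7% of all genes tested.

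The Hoxa genes from Hoxa5 to Hoxa10 all rose. Hoxa5 stood at 8.57, 10.2 and 9.47 CPM in TGF_VEC_CM and at 12.9, 13.1 and 13.4 CPM in TGF_KD_CM, without overlap (log2 0.48 ± 0.089; edgeR adjusted p = 7.15e-06). Its neighbour Hoxa6 stood at 13.7, 13 and 13.8 CPM against 17.6, 17.8 and 18.8 CPM, also without overlap (log2 0.42 ± 0.079). Hoxa7 rose by 0.32 ± 0.059, Hoxa9 by 0.26 ± 0.091 and Hoxa10 by 0.28 ± 0.046 on the log2 scale. At the other end of the cluster Hoxa2 and Hoxa4 did not pass, with log2 fold changes of -0.06 and -0.26, but Hoxa3 rose by 0.27 ± 0.061.

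Group 6 rose in all 3 clusters, with Hoxb6 at 27.4 ± 0.96 against 20.3 ± 0.696 CPM and Hoxc6 at 56.4 ± 2.77 against 43.5 ± 1.51 CPM. Hoxb7 and Hoxc9 rose by 0.39 ± 0.073 and 0.38 ± 0.083 on the log2 scale. The largest rise was that of Hoxd4, at 5.98, 6.39 and 7.22 CPM in TGF_VEC_CM and 11.0, 9.04 and 9.18 CPM in TGF_KD_CM (log2 0.58 ± 0.109; edgeR adjusted p = 1.09e-05). Its groups did not overlap, and 52.3% of its exonic bases are shared with other genes, Hoxd3 among them, which stood at 3.66 ± 0.336 against 3.72 ± 0.428 CPM. Hoxc10 rose by 0.15 ± 0.036, from 83.8 ± 1.3 to 93.0 ± 3.26 CPM. Small rises of Hoxb3, Hoxb4 and Hoxb5 (log2 0.17, 0.25 and 0.21; edgeR adjusted p = 0.0319, 0.0431 and 0.0443) were lost with DESeq2 (0.0615, 0.0727 and 0.08). They were also lost with upper-quartile scaling and with library totals, and without any 1 library of TGF_KD_CM or TGF_VEC_CM in turn, except Hoxb3 without TGF_KD_CM replicate 2 and Hoxb4 without TGF_VEC_CM replicate 1. The adjusted p for Hoxb3, Hoxb4 and Hoxb5 then ran up to 0.164, 0.231 and 0.207. Leaving out VEC_CM replicate 3 lost all 3 calls as well, and VEC_CM replicate 1 or OE_CM replicate 1 or 3 lost those of Hoxb4 and Hoxb5. For Hoxa9 (adjusted p = 0.0158) the call was lost without TGF_VEC_CM replicate 2 or 3 or TGF_KD_CM replicate 2 (adjusted p = 0.0685, 0.0681 and 0.108).

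Hoxb9 was the single HOX gene that fell in this comparison. It stood at 48.1, 42.8 and 41.0 CPM in TGF_VEC_CM and at 32.7, 33.5 and 33.8 CPM in TGF_KD_CM. All TGF_KD_CM libraries lay below all TGF_VEC_CM libraries (log2 -0.40 ± 0.059; edgeR adjusted p = 5.52e-08). Hoxb13, on the far side of it in the cluster, was at 8.54 ± 0.0766 against 8.12 ± 1.27 CPM (adjusted p = 0.625), and Hoxb8 was at 7.47 ± 0.0899 against 7.08 ± 1.09 CPM. Hoxc11, too low to be tested, had 2, 4 and 6 counts in the TGF_KD_CM libraries and 0 or 1 in each of the other 9.

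**Figure D3:**
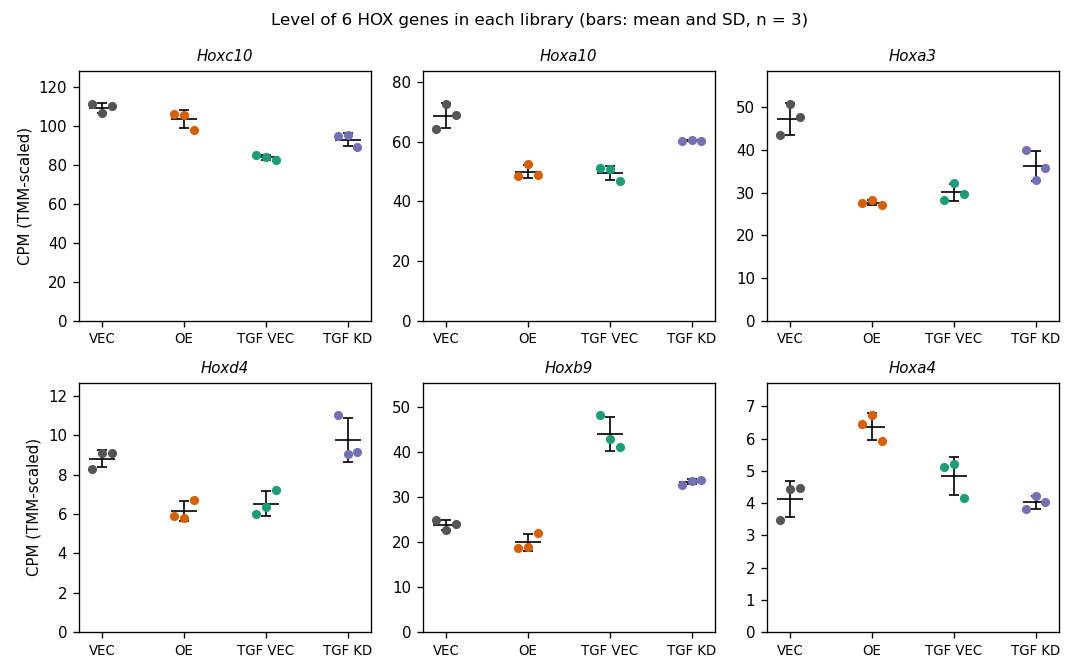
TMM-scaled CPM (vertical, from 0) of 6 HOX genes in each library of the 4 groups, with the mean and SD of each group (n = 3). Hoxa10, Hoxa3 and Hoxd4 are lower in OE and TGF VEC than in VEC and TGF KD, Hoxb9 is highest in TGF VEC, and Hoxa4 is highest in OE.

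The 2 comparisons share no library, so their calls can be set side by side. Of the 19 HOX genes that fell in OE_CM, 12 rose in TGF_KD_CM, which is also 12 of the 15 that rose there. They are Hoxa3, Hoxa5, Hoxa6, Hoxa7, Hoxa9, Hoxa10, Hoxb3, Hoxb5, Hoxb6, Hoxc6, Hoxc10 and Hoxd4. Of these, Hoxa7 and Hoxc10 lost the call in OE_CM when single libraries were left out. Hoxa9, Hoxb3 and Hoxb5 lost the call in TGF_KD_CM in the same way. When tested against a change of 1.2-fold, Hoxd4 alone among them kept both calls. Over all genes, 1251 of the 3695 that fell in OE_CM rose in TGF_KD_CM (33.9%), which is 8.69% of the genes tested. Hoxb9 fell in both, and Hoxa4 rose in OE_CM alone among the calls. A further 6 genes fell in OE_CM and did not pass in TGF_KD_CM (Hoxa2, Hoxb8, Hoxb13, Hoxc4, Hoxc5 and Hoxd3). The reverse held for Hoxb4, Hoxb7 and Hoxc9. Among the others, Hoxb2, Hoxc8, Hoxd8 and Hoxd9 passed in neither. Hoxd8 missed the threshold in OE_CM by little (log2 -0.16 ± 0.0705; edgeR adjusted p = 0.0575), and it was called lower there under 7 of the 9 alternatives other than the 1.2-fold test, with adjusted p down to 0.00334, and in 4 of the 12 fits that left out a library.

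The difference between the 2 medium effects was tested in the same model. It passed for 21 of the 28 HOX genes, 20 with a lower effect in OE_CM and 1, Hoxa4, with a higher one, where 52.5% of all genes passed (26.8% lower, 25.6% higher). Hoxd4 and Hoxa3 differed most, by -1.10 ± 0.157 and -1.05 ± 0.086 on the log2 scale (edgeR adjusted p = 1.19e-08 and 1.29e-15). For Hoxb9, which fell in both, the difference was 0.14 ± 0.089 (adjusted p = 0.195). For Hoxb4, Hoxd9, Hoxa2, Hoxb2 and Hoxc8 it did not pass either.

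**Figure D4:**
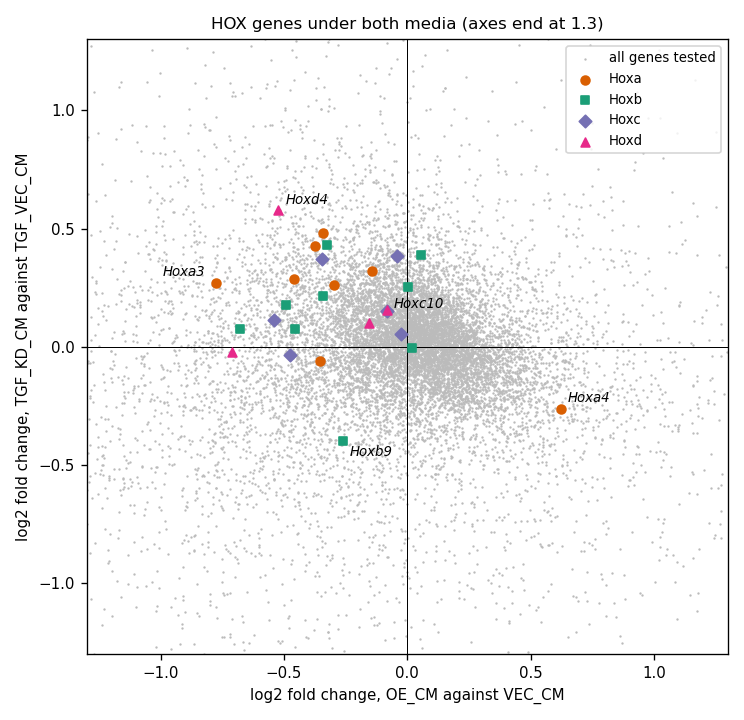
Log2 fold change in OE_CM against VEC_CM (horizontal) and in TGF_KD_CM against TGF_VEC_CM (vertical) for all 14400 genes tested (grey) and 27 of the 28 HOX genes (coloured by cluster); both axes end at 1.3, so genes beyond are not drawn. Most HOX genes lie in the upper left part, Hoxa4 in the lower right and Hoxb9 in the lower left.

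The TGF-beta1 group with vector medium was compared with vector medium alone. The groups come from separate parts of the study, so TGF-beta1 and part cannot be told apart, and the comparison shares VEC_CM with the first and TGF_VEC_CM with the second. Of the 28 HOX genes 12 were lower in TGF_VEC_CM and 2 higher, against 29.4% lower and 28.9% higher over all genes (58.3% called in all). The median was -0.14 over the HOX genes and 0.00 over all genes. Every TGF_VEC_CM library lay below every VEC_CM library for 14 HOX genes and above for 3, against 31.5% and 31.3% of all genes tested.

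Hoxb9, a gene of the chest and lumbar regions (chromosome 11, 96271330 to 96276595, NCBI gene 15417), went against the rest. It stood at 24.8, 22.5 and 24.1 CPM in VEC_CM and at 48.1, 42.8 and 41.0 CPM in TGF_VEC_CM. Each TGF_VEC_CM library was well above each VEC_CM library, and the rise was 1.85-fold (log2 0.88 ± 0.061; edgeR adjusted p = 4.37e-20). Its paralog Hoxc9 was lower by 0.61 ± 0.082 on the log2 scale, at 10.8 ± 0.236 against 16.4 ± 1.6 CPM. Hoxa9 and Hoxd9 did not pass (log2 -0.14 and -0.12). Hoxb2, the other gene called higher (log2 0.20; edgeR adjusted p = 0.028), lost that call without VEC_CM replicate 2 or TGF_VEC_CM replicate 2 (adjusted p = 0.0824 and 0.125).

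Among the genes lower in TGF_VEC_CM, Hoxa3 had the largest change (log2 -0.65 ± 0.06), followed by Hoxc9, Hoxa5 (-0.56 ± 0.089) and Hoxa6 (-0.55 ± 0.079). Hoxb7 was at 14.8 ± 1.16 against 20.6 ± 1.35 CPM. Hoxc10 was at 85.1, 83.8 and 82.5 CPM in TGF_VEC_CM, below all 3 VEC_CM libraries (log2 -0.38 ± 0.036; edgeR adjusted p = 1.21e-14), a larger change than it had with either medium. Hoxa10 was lower by 0.47 ± 0.045, close to its value of -0.46 in OE_CM. Hoxb8, Hoxb13, Hoxd3 and Hoxc4 had log2 fold changes of 0.09, 0.14, 0.17 and -0.07 here and did not pass. The weakest call, that of Hoxc8 (log2 -0.14; edgeR adjusted p = 0.0474), was lost with DESeq2 (0.0802) and without either VEC_CM replicate 1 or 3 or TGF_VEC_CM replicate 1 or 2 (adjusted p = 0.0642, 0.324, 0.271 and 0.118). It was lost too without OE_CM replicate 1 or 3 or any 1 library of TGF_KD_CM (adjusted p between 0.0715 and 0.0742).

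By cluster, the OE_CM falls took 7 of 9 tested Hoxa genes, 6 of 9 Hoxb, 4 of 6 Hoxc and 2 of 4 Hoxd. Of all genes 25.7% fell there. The TGF_KD_CM rises took 6 of 9 Hoxa, 5 of 9 Hoxb, 3 of 6 Hoxc and 1 of 4 Hoxd, against 23% of all genes. The genes lower in TGF_VEC_CM were 5 of 9 Hoxa, 2 of 9 Hoxb, 4 of 6 Hoxc and 1 of 4 Hoxd. With 29.4% of all genes lower there, the Hoxb and Hoxd counts are near or below that background. Whether the clusters differ from each other was not tested. By paralog number, group 2 held 1 call with either medium, the fall of Hoxa2 in OE_CM. Group 6 was called in every member in all 3 of these comparisons, and so were the 2 tested genes of group 10. Of all genes 54%, 43.3% and 58.3% were called in OE_CM, TGF_KD_CM and TGF_VEC_CM.

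HOX proteins bind DNA together with TALE homeodomain cofactors of the PBX, MEIS and PKNOX families. Of 8 tested cofactor genes 4 fell and 2 rose in OE_CM (median log2 -0.17), where 25.7% of all genes fell and 28.4% rose. In TGF_KD_CM 1 of them rose and none fell (median -0.05), against 23% of all genes higher and 20.2% lower. Pknox2, Pbx2 and Meis1 fell in OE_CM (-0.86, -0.43 and -0.29), and Pknox1 and Pbx4 rose (0.28 and 1.10).

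The noncoding RNAs of the clusters were low. Of 11 found, 5 could be tested. Hotair, transcribed from the Hoxc cluster, fell from 0.719 to 0.280 CPM in OE_CM (log2 -1.36; edgeR adjusted p = 0.0113). Hoxb3os, antisense to Hoxb2 and Hoxb3, rose from 6.86 to 8.66 CPM in TGF_KD_CM (log2 0.34; adjusted p = 0.0173) and was at 5.09 against 5.93 CPM in OE_CM (adjusted p = 0.144). Since the strand setting of the counting is not given in the sources used here, reads in the exonic bases that Hoxb3os shares with Hoxb2 (27.3% of Hoxb2) and Hoxb3 (52.9%) cannot be told apart.

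Polycomb proteins hold HOX genes silent, and trithorax proteins keep them active. Of 22 tested polycomb genes 12 fell and 3 rose in OE_CM (median log2 -0.14), and 5 rose and 4 fell in TGF_KD_CM (median -0.01). Cbx8 and Cbx7, which read the repressive histone mark, fell by 0.79 and 0.71 on the log2 scale in OE_CM, and the histone methyltransferase gene Ezh2 by 0.11. Bmi1 rose in TGF_KD_CM, from 61.0 to 90.4 CPM (log2 0.57), and Phc2 fell there by 0.56. Of 15 tested trithorax and related genes 6 rose and 3 fell in OE_CM, and 4 rose and 5 fell in TGF_KD_CM. Over all genes the shares are 28.4% higher and 25.7% lower in OE_CM, and 23% higher and 20.2% lower in TGF_KD_CM, so that the polycomb counts in TGF_KD_CM are near that background. Kmt2a, the MLL methyltransferase of HOX genes, fell by 0.16 in OE_CM and was at 189 CPM in both TGF-beta1 groups. The H3K27 demethylase gene Kdm6a rose in TGF_KD_CM (log2 0.42).

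Genes that flank the clusters were read with the same tests. Of 13 tested, 5 fell and 2 rose in OE_CM, and 5 rose and 3 fell in TGF_KD_CM, where 25.7% of all genes fell and 28.4% rose in the first and 23% rose and 20.2% fell in the second. Calcoco1, beside Hoxc, fell from 45.5 to 29.3 CPM in OE_CM and rose from 25.8 to 38.9 CPM in TGF_KD_CM. Skap2, beside Hoxa, fell by 0.20 on the log2 scale and rose by 0.21 in the same comparisons. Hibadh, at the other side of Hoxa, and Mtx2, beside Hoxd, passed in neither. Ttll6, beside Hoxb, fell from 5.39 to 1.41 CPM in OE_CM (log2 -1.93) and was at 10.8 CPM in TGF_VEC_CM.

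Other factors of positional identity were read from lists named for heart, limb and trunk, head and visceral mesenchyme. Pitx1 and Tbx4, the hindlimb factors, never exceeded 2 counts, although Hoxa10 and Hoxc10 led the HOX genes. Tbx15 and Shox2, factors of limb and trunk mesenchyme, were at 9.63 and 5.40 FPKM over all libraries. Of the 10 genes on that list 8 were found and 6 tested. In OE_CM, and again in TGF_KD_CM, 2 of them rose and 1 fell. Over all genes 28.4% rose and 25.7% fell in OE_CM, and 23% rose and 20.2% fell in TGF_KD_CM. The list summed to between 156 and 166 CPM in VEC_CM, the head list to between 137 and 142 CPM. Of the visceral list 2 of 6 genes were found, and the 1 tested passed in neither comparison. Of 6 tested genes of the head list 2 fell and none rose in OE_CM, where 25.7% of all genes fell and 28.4% rose. In TGF_KD_CM 1 of them rose and 2 fell, against 23% of all genes higher and 20.2% lower.

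Markers of other cell types moved with some groups. Leukocyte markers summed to between 34.9 and 36.6 CPM in VEC_CM and between 16.4 and 27 CPM in OE_CM. With TGF-beta1 the sums lay between 28.4 and 30.9 CPM (vector) and between 22.8 and 25.2 CPM (inhibition). Of their 6 tested genes 2 fell and none rose in OE_CM, and 2 fell and none rose in TGF_KD_CM. The shares over all genes were 25.7% lower and 28.4% higher in OE_CM, and 20.2% lower and 23% higher in TGF_KD_CM. The T cell gene Cd3e never exceeded 1 count. Adipocyte markers summed to between 264 and 279 CPM in VEC_CM and between 97.4 and 101 CPM in OE_CM. With TGF-beta1 the sums lay between 186 and 198 CPM (vector) and between 152 and 163 CPM (inhibition), most of it Fabp4, while Lep never exceeded 1 count. Mural markers, led by Cspg4, summed to between 598 and 617 CPM in VEC_CM, 896 and 903 in OE_CM, 820 and 844 in TGF_VEC_CM, and 636 and 649 in TGF_KD_CM, with Kcnj8 at no more than 1 count and Myh11 at no more than 6. Cardiomyocyte markers, led by Tnnt2, summed to 70.0 to 75.2, 163 to 167, 105 to 116 and 97.2 to 104 CPM in the same order, while Actc1, Myl2 and Tnni3 never exceeded 1 count. Endothelial and epithelial markers summed to less than 2 CPM in every library. The part of these cell types in the HOX changes was not tested.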

How the data were processed

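The authors deposited 1 table of whole-number read counts and 1 of FPKM, each with a column for every one of 12 libraries. The build is GRCm38 or mm10 per the submitters' processing notes. Aligner, counter, strand setting and annotation: not given in the sources used here. The deposited FPKM equal the counts over library total and a fixed gene length (checked for 24619 genes, largest deviation 0.000395%).

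The test was edgeR 4.0.16 (R 4.3.3): filterByExpr (14400 genes kept), TMM factors, and 1 robust quasi-likelihood fit of all libraries with a mean per group. Tests were two-sided, Benjamini-Hochberg adjusted over the genes kept, with a threshold of 0.05. SE is the log2 fold change divided by the root of the F statistic. Alternatives used DESeq2 1.42.0, limma 3.58.1 on log2(FPKM + 1) and log2(FPKM + 0.1), other scalings and filters, and left out each library. The fit was tested on simulated data for OE_CM against VEC_CM, with 50 of 14400 genes changed at each size of change. It recovered 74% of them at 1.25-fold, 60% at 1.5-fold, 78% at 2-fold and 96% at 4-fold, and 1.91% of its calls were false. Far fewer genes changed there than passed in the data, so scaling under such broad change was not tested. Whether recovery was the same for rises and for falls of a given size was not tested either. Replicate numbers were not used as pairs. Every HOX gene could be named, and companion genes came from fixed lists. Any listed gene could be named, with preference for high mean CPM and then for size of change. Those named are not always the most abundant of their list. Members and lists were chosen with earlier results of these data known. Positions and gene numbers are RefSeq's for GRCm38.p6, and shared exons are from GENCODE M21. Some genes are counted but not reported by name here. Promoter windows of mouse chromosome 18 were left out.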

Additional observations from a re-analysis of the deposited data

Results flagged for a closer look

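The effect of the medium on 21 HOX genes differed between overexpression without TGF-beta1 and inhibition with it, by the test of the difference itself in edgeR. The same test passed for 52.5% of all genes tested (26.8% lower, 25.6% higher). Values are the log2 effect in OE_CM minus that in TGF_KD_CM. In Hoxa they were -1.05 for Hoxa3, 0.89 for Hoxa4, -0.82 for Hoxa5, -0.80 for Hoxa6, -0.46 for Hoxa7, -0.56 for Hoxa9 and -0.74 for Hoxa10. In Hoxb they were -0.67 for Hoxb3, -0.55 for Hoxb5, -0.76 for Hoxb6, -0.34 for Hoxb7, -0.76 for Hoxb8 and -0.53 for Hoxb13. In Hoxc they were -0.44 for Hoxc4, -0.65 for Hoxc5, -0.72 for Hoxc6, -0.42 for Hoxc9 and -0.23 for Hoxc10. In Hoxd they were -0.69 for Hoxd3, -1.10 for Hoxd4 and -0.26 for Hoxd8. The medium effects compared differ in the virus, in TGF-beta1 and in the part of the study, so these factors cannot be told apart. The calls of Hoxd3 and Hoxd8 were lost without single libraries, with adjusted p up to 0.0733 and 0.157. For Hoxd3 these were VEC_CM replicate 3, OE_CM replicates 1 and 2, TGF_VEC_CM replicate 3 and TGF_KD_CM replicate 3. For Hoxd8 they were VEC_CM replicate 2, OE_CM replicate 2, TGF_VEC_CM replicate 1 and TGF_KD_CM replicates 1 and 2.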

How the results depend on the processing

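No HOX gene reversed direction with a call under any alternative. The test against a change of 1.2-fold left 9 HOX genes called of 20 in OE_CM, 5 of 16 in TGF_KD_CM and 8 of 14 in TGF_VEC_CM, and 3078, 1507, 3575 and 4091 of all genes in these comparisons and their difference. By construction it asks for a larger change. Under the other 9 alternatives (8 for the difference) the HOX counts stayed within 1.5 times, and 19 of 20, 13 of 16, 12 of 14 and 20 of 21 calls held under all of them. Leaving out each library gave 18 to 21, 12 to 16, 12 to 14 and 19 to 21 HOX calls. Scaling moved the split of all genes in OE_CM from 4083 higher and 3695 lower to 2798 and 5059 (upper quartile) or 2936 and 4840 (library totals). Same-numbered replicates correlated by at most 0.0436 in their deviations, although 8 of 9 correlated best with their own number. These were all 3 between VEC_CM and OE_CM, all 3 between VEC_CM and TGF_VEC_CM, and 2 of 3 between TGF_VEC_CM and TGF_KD_CM. With the replicate block the HOX counts were 20, 16, 14 and 21, and 7894, 6381, 8521 and 7678 of all genes passed. Counts near the floor limit Hoxb1, Hoxc11, Hoxd10, Hoxd11 and Hoxd13.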

Other observations

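Retinoic acid is a known inducer of HOX genes, through receptors that bind near the clusters. Of 14 tested genes of retinoic acid handling and of the CDX inputs, 5 rose and 3 fell in OE_CM, and 6 rose and 2 fell in TGF_KD_CM. Over all genes 28.4% rose and 25.7% fell in OE_CM, near the shares of this list, and 23% rose and 20.2% fell in TGF_KD_CM. The binding protein gene Crabp2 rose in both, from 121 to 188 CPM and from 194 to 221 CPM. Cyp26a1 and Cyp26c1, whose enzymes break down retinoic acid, were low but rose in TGF_KD_CM, from 0.136 to 0.991 CPM and from 0.073 to 0.432 CPM (edgeR adjusted p = 3.24e-06 and 0.00144), while Cyp26b1 fell there from 23.9 to 14 CPM. Cyp26b1 also fell in OE_CM, from 19.3 to 12.8 CPM. The receptor gene Rarg fell from 131 to 99.9 CPM in OE_CM and rose from 125 to 135 CPM in TGF_KD_CM.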
